A study of Mus musculus with 4 samples.

Results

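The genes described here are those of adrenal steroid production together with the receptor through which corticotropin drives it: Mc2r, Mrap, Nr5a1, Star, Cyp11a1, Cyp11b1, Cyp21a1, Hsd3b1 and Akr1b7. They were found as every probe set that the platform annotation assigns to one of these 9 symbols, which gave 15 probe sets of 8 genes among 45101 probe sets of the array and 18194 named genes. The annotation used here lists no probe set under Akr1b7, so that gene was not analysed here. Gene expression had been measured in cells sorted by green fluorescent protein (GFP) from chimeric mouse kidneys on embryonic day 15.5, with 2 Affymetrix arrays per group. The first group was GFP-positive cells labelled Tfrc-/-, which came from 3 to 5 embryonic stem cells with the transferrin receptor gene Tfrc deleted, injected into a wildtype blastocyst. The second was the GFP-negative wildtype cells, which came from the host. Both kinds of cell were taken through the same collagenase and trypsin digestion and the same sort, while the sources used here give no strain, sex or promoter behind GFP. Neither group holds donor-derived cells with Tfrc intact, so an effect of Tfrc and other differences of the donor line from the host cannot be told apart. The labels call the arrays biological replicates without naming animals.

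Corticotropin is the pituitary peptide, cut from the precursor Pomc, that makes the adrenal cortex release corticosteroids. Its receptor, encoded by Mc2r, reaches the cell surface only with the accessory protein Mrap and signals through cyclic AMP. The transcription factor Nr5a1 (steroidogenic factor 1) switches on the genes that carry out the synthesis: Star brings cholesterol into mitochondria, Cyp11a1 cleaves its side chain, Hsd3b1, Cyp21a1 and Cyp11b1 turn the product into corticosterone, the main glucocorticoid of mice. The adrenal gland lies on top of the kidney, and its cortex and the kidney form from neighbouring mesoderm. The question put to the data was whether Mc2r moved with the steroidogenic genes or apart from them. The genes were chosen on their function and on the intensities of this same comparison, in which Mc2r was already known to be high, so their values are given as a description and no test is drawn from them.

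Mc2r stood apart from the other genes. Its single probe set read 80.3 and 78.9 on the arrays labelled Tfrc-null, against 40.7 and 28.9 on the wildtype arrays, in units of intensity on a linear scale. Both labelled Tfrc-null arrays lay above both wildtype arrays, and the means were 79.6 ± 0.971 and 34.8 ± 8.38 (SD, n = 2 each). This is a 2.32-fold higher level (log2 difference 1.22, SE 0.23), and the difference was 0.98 between the arrays numbered 1 and 1.45 between those numbered 2. None of the other 7 measured genes stood as far apart. In cells sorted in bulk, more cells with Mc2r and more Mc2r RNA per cell cannot be told apart.

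All 4 arrays read Mc2r above the control level, which is the highest of 27 control probe sets for Bacillus subtilis genes on the same array. That level was 7.40 and 7.77 on the labelled Tfrc-null arrays and 7.18 and 9.08 on the wildtype arrays. The Mc2r signal was brighter than 68.5% and 68.4% of all probe sets on the labelled Tfrc-null arrays and than 60.6% and 55.7% on the wildtype arrays. The gene has 1 probe set here, so no second measurement of it on the same arrays was at hand.

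**Figure D1:**
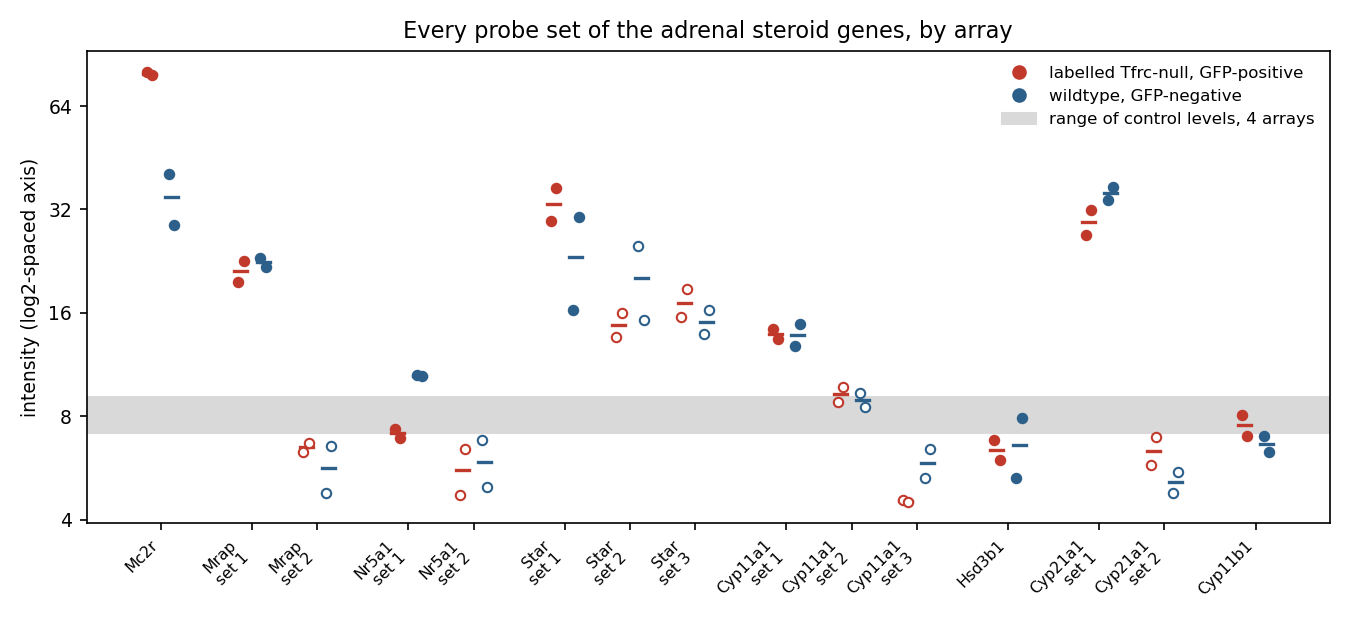
Intensity (log2-spaced axis) of all 15 probe sets, each point 1 array, red for labelled Tfrc-null and blue for wildtype, with a bar at the mean of 2. Filled points are the probe set that stands for the gene, open points its other probe sets, and the grey band runs from the lowest to the highest control level, 7.18 to 9.08. Mc2r is at 80.3 and 78.9 against 40.7 and 28.9, and most other probe sets lie close together or in and under the band.

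Mrap, the accessory protein without which the receptor is not displayed, had nearly equal means in the groups. Its brighter probe set read 19.7 and 22.7 on labelled Tfrc-null arrays, against 23.2 and 21.8 on wildtype arrays. The groups overlapped, and the log2 difference was -0.09 (SE 0.19). A second Mrap probe set was above the control level on none of the arrays, at 6.30 and 6.71 against 4.77 and 6.55.

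The transcription factor Nr5a1 stood lower where Mc2r stood higher. Its brighter probe set read 7.36 and 6.91 on labelled Tfrc-null arrays, both at or below the control level, against 10.6 and 10.5 on wildtype arrays, both a little above it. The groups did not overlap. With the labelled Tfrc-null arrays set at their control level, the gene was 1.39-fold lower there. That fold makes no allowance for the spread of readings so close to the level. The measured log2 difference was -0.56 (SE 0.18, limma adjusted p = 0.505), and -0.20 with 16 added to each intensity. The second Nr5a1 probe set was above that level on no array, at 4.71 and 6.44 against 6.82 and 4.98, and its groups overlapped.

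Star, the gene of the cholesterol carrier, had 3 probe sets that did not run one way. The brightest read 29.7 and 36.9 on labelled Tfrc-null arrays, against 16.3 and 30.4 on wildtype arrays. Its log2 difference of 0.57 (SE 0.34) was the largest after that of Mc2r, but the groups overlapped and the wildtype array numbered 1 alone was low. Without that array the difference was 0.12, and without the other wildtype array 1.02. The second probe set read 13.6 and 15.97 against 25.1 and 15.2, with a log2 difference of -0.41. The third read 15.5 and 18.7 against 13.8 and 16.3, with a difference of 0.19. All 3 were above the control level on the 4 arrays, and none separated the groups.

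Cyp11a1, the gene of the first enzyme of every steroid, had nearly equal means in the groups as well. Its brightest probe set read 14.4 and 13.4 on labelled Tfrc-null arrays, against 12.8 and 14.9 on wildtype arrays, a log2 difference of 0.01 (SE 0.19). A second read 8.82 and 9.75 against 9.37 and 8.51, close to the control level. The third was above that level on no array. Cyp11a1 is a textbook target of Nr5a1, which binds half-sites of nuclear receptors. Part of the Cyp11a1 promoter is printed because the brighter Nr5a1 probe set, near the control level, stood lower while Cyp11a1 did not. The 100 bases upstream of its downstream annotated start are at chr9:58014852-58014951 on the plus strand of GRCm38.p6 (RefSeq), with the letters AGGTCA in capitals:

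Cyp11a1: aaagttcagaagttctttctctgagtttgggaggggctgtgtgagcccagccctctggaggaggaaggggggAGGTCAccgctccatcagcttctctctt

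AGGTCA is the half-site that nuclear receptors share. On either strand it is found in 16.3% of the 32851 promoter windows of the RefSeq table, each running from 250 bases before a start to 50 after it. The longer CAAGGNCA, which contains AGGTCA when N is T, is found in 6.71% and in neither Cyp11a1 window. The window at the upstream Cyp11a1 start and that of Hsd3b1 hold neither set of letters. The Akr1b7 window holds AGGTCA on the opposite strand, with its first base at -248 from the start. A match of letters is a description and does not show binding.

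The enzymes of the later steps were near or under the control level, or slightly lower. Hsd3b1, which makes progesterone from pregnenolone, was above the control level on no array, at 6.82 and 5.98 on labelled Tfrc-null arrays and 5.28 and 7.94 on wildtype arrays, so no difference is read from it. Cyp11b1, the enzyme of the last step to corticosterone, read 8.05 and 7.02 against 6.999 and 6.28, and only 1 array, labelled Tfrc-null replicate 1, was above its control level. Cyp21a1, the 21-hydroxylase, had a probe set above the control level throughout. It read 26.9 and 31.97 on labelled Tfrc-null arrays, against 34.2 and 37.2 on wildtype arrays, without overlap, a log2 difference of -0.28 (SE 0.20). A second Cyp21a1 probe set was above the control level on no array and ran the other way, at 5.78 and 6.94 against 4.78 and 5.50. Values of Cyp21a1, Cyp11b1 and Hsd3b1 are uncertain as single-gene values, since each has close relatives in the mouse genome to which probes may bind.

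Over the 8 measured genes the log2 differences ran from -0.56 (Nr5a1) to 1.22 (Mc2r), with a median of -0.0033, against a median of 0.04 over all 18194 genes. The 5 genes of steroid production, Star, Cyp11a1, Hsd3b1, Cyp21a1 and Cyp11b1, had a median of 0.01, so Mc2r differed by 1.20 more than they did. Their summed intensity was 85.9 and 95.3 on labelled Tfrc-null arrays and 75.6 and 96.7 on wildtype arrays, and the groups overlapped. In the fit over all genes (limma, Benjamini-Hochberg adjustment), 0 of the 8 genes passed an adjusted p of 0.05, as did 0.0% of all genes. At an unadjusted p under 0.05 there were 2 of 8, Mc2r and Nr5a1, against 8.02% of all genes. Separation of the groups with at least a 2-fold difference was seen upward for 1 of 8, Mc2r, against 1.15% of all genes, and downward for 0 of 8, against 1.51%. Separation of any size was seen upward for 2 of 8 (20.6% of all genes) and downward for 2 of 8 (14.3%). Since the genes were chosen with this comparison in view, nothing is read from these shares. Of the 15 probe sets, 7 were above the control level on all arrays, 3 on some arrays and 5 on none. By the probe set used, 5 of the 8 genes were above it on all arrays, against 13572 of all 18194 genes. Hsd3b1 was the only one of the 8 genes with no probe set above it on any array, a state shared by 12.5% of all genes when judged by the probe set used.

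**Figure D2:**
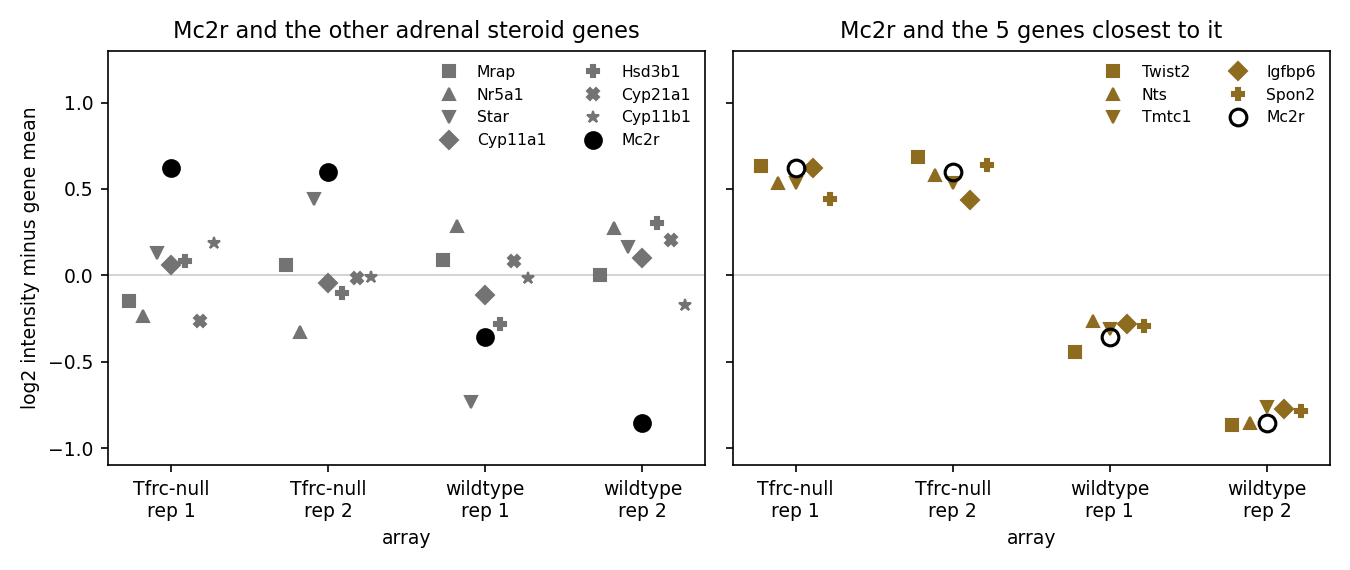
Log2 intensity of each gene minus its own mean over the 4 arrays (vertical axis), by array, for Mc2r and the other 7 measured genes (left) and for Mc2r and the 5 genes closest to it (right). Points are shifted sideways to part them. Mc2r is high on both labelled Tfrc-null arrays and lowest on wildtype replicate 2. Twist2, Nts, Tmtc1, Igfbp6 and Spon2 share this course, and none of the other 7 measured genes on the left does so in size. Cyp11b1, near the control level, has the same order of arrays over a much smaller range.

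Genes whose course over the 4 arrays was most like that of Mc2r were ranked by the root mean square distance between log2 values centred on each gene's mean, among 13571 genes above the control level on every array. The closest were Twist2 (distance 0.062), Nts (0.065), Tmtc1 (0.075), Igfbp6 (0.097) and Spon2 (0.10). Twist2 read 318.6 and 329.8 on labelled Tfrc-null arrays, against 150.9 and 112.5 on wildtype arrays. Nts, which encodes the peptide neurotensin, read 516.6 and 534.1 against 297.4 and 197.3. Among the other adrenal steroid genes that were above the control level on every array, Star was the nearest to Mc2r, at a distance of 0.60, and Cyp21a1 the farthest, at 0.79. With 4 arrays such likeness is a description of these samples.

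On chromosome 18 Mc2r lies beside another melanocortin receptor gene, Mc5r, in the RefSeq table of GRCm38.p6. Mc5r was above the control level on no array, at 6.74 and 6.03 on labelled Tfrc-null arrays and 5.31 and 5.74 on wildtype arrays. The noncoding Gm29677, between them, read 12.4 and 11.3 against 11.7 and 10.6, and its groups overlapped. The noncoding genes on the other side, Gm41765 and Gm30700, have no probe set listed under their symbol alone in the annotation used here.

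Of the melanocortin family apart from Mc2r, 6 of 8 listed genes were measured, and 0 passed the adjusted threshold. Pomc, the precursor of corticotropin, read 55.4 and 96.7 on labelled Tfrc-null arrays, against 16.8 and 72.4 on wildtype arrays, so the groups overlapped. The agouti gene a, whose product blocks melanocortin receptors, read 10.8 and 10.5 against 6.20 and 7.15. Both wildtype arrays were at or below the control level. With them set at that level, the gene was 1.32-fold higher, with no allowance for spread. Mc1r, the pigment cell receptor, read 5.69 and 8.73 against 6.22 and 5.84, and Mc3r read 7.65 and 7.05 against 8.79 and 5.87. Mrap2, the second accessory protein, read 8.82 and 9.46 against 8.51 and 11.9. Only Mc2r of the receptor genes measured was above the control level on all 4 arrays.

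Downstream of the receptor, 16 of 16 listed genes of cyclic AMP signalling were measured, with a median log2 difference of -0.04, and 0 passed. Those with the largest differences were lower on labelled Tfrc-null arrays: the adenylyl cyclase Adcy5 (15.5 and 25.4 against 43.1 and 34.2), the phosphodiesterase Pde8a (282.2 and 203.2 against 414.5 and 319.0), and Nr4a1 and Nr4a2, early-response nuclear receptors, with log2 differences of -0.59 and -0.56. Adcy5, Pde8a and Nr4a2 separated the groups and Nr4a1 did not. The stimulatory G protein gene Gnas, through which the receptor acts, differed by 0.05 on the log2 scale.

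Among other genes of steroid synthesis a relative of Hsd3b1 stood furthest apart. Of 20 listed, 13 were measured, with a median log2 difference of 0.04 and 0 past the adjusted threshold. Hsd3b2, a further 3-beta-hydroxysteroid dehydrogenase gene, read 23.6 and 24.1 on labelled Tfrc-null arrays, against 9.60 and 10.2 on wildtype arrays, with no overlap and a log2 difference of 1.27 (SE 0.18, limma adjusted p = 0.152). It was above the control level on all arrays, unlike Hsd3b1, but mouse genes of this family are so alike that its probes may bind others of them. Fdx1, the electron donor of the mitochondrial steroid hydroxylases, read 330.9 and 282.8 against 143.3 and 248.2 (log2 difference 0.70). Tspo, a mitochondrial outer membrane protein, differed by 0.58 (SE 0.56) with overlapping groups, and Hsd17b1 by -0.35 (SE 0.22) without overlap. The aldosterone synthase Cyp11b2 and the androgen-forming Cyp17a1 were above the control level on no array, as was the case for Hsd17b3. Akr1b8, a relative of the unmeasured Akr1b7, read 137.7 and 133.8 against 75.8 and 84.0, a log2 difference of 0.77 (limma adjusted p = 0.34).

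**Figure D3:**
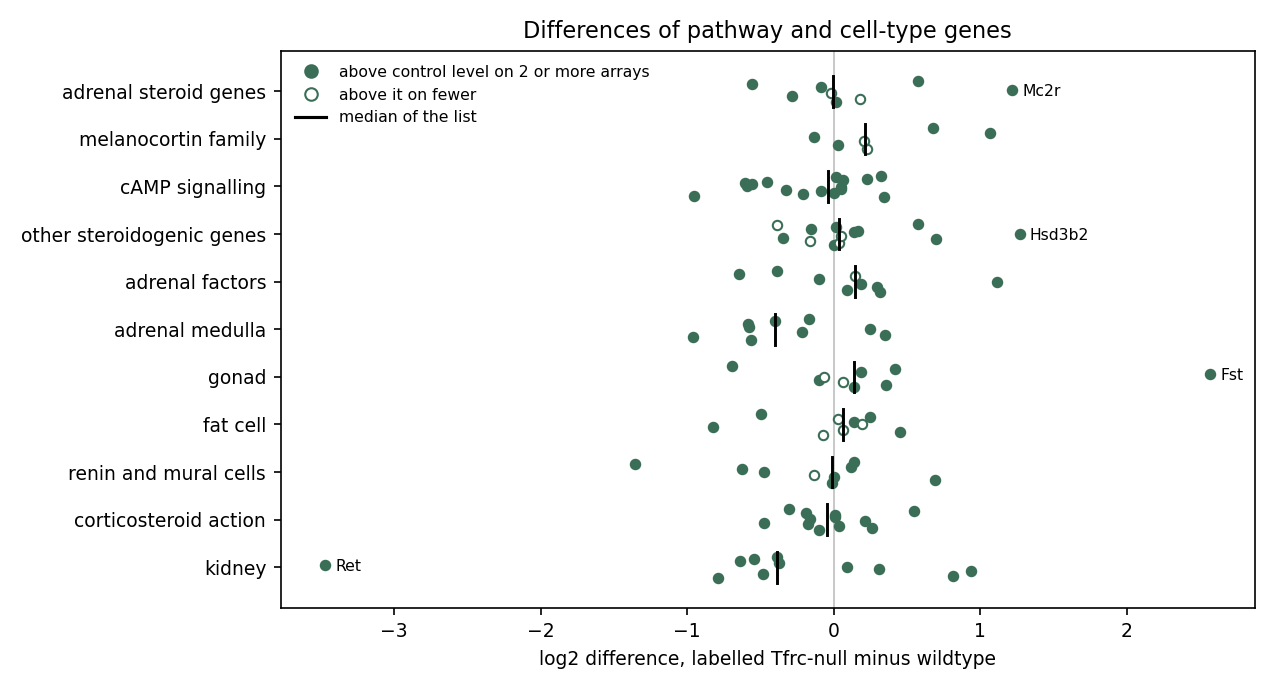
Log2 difference, labelled Tfrc-null minus wildtype, of each measured gene (horizontal axis) in the adrenal steroid group and 10 further lists (rows). Filled points are genes above the control level on 2 or more arrays, open points the others, and the black line is the median of the list. Mc2r at 1.22 lies away from the median of its own group, -0.0033.

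Markers of cells that could hold Mc2r were looked at beside it. Of all 18194 genes, 13572 were above the control level on all 4 arrays, so passing it does not by itself mark a cell type. For the adrenal cortex, the brightest probe sets of Star, Cyp11a1, Cyp21a1 and Mrap were above the control level on all 4 arrays. Their values are given above, and Cyp11a1, Cyp21a1 and Mrap each have another probe set that exceeded that level on no array. The inhibin gene Inha was above it on all 4 arrays, at 23.0 and 27.1 on labelled Tfrc-null arrays and 26.6 and 26.9 on wildtype arrays. Hsd3b1, Cyp17a1, Cyp11b2 and the orphan receptor Nr0b1 exceeded it on no array, and Cyp11b1 on 1. Nr5a1, by its brighter probe set, exceeded it on both wildtype arrays and on neither labelled Tfrc-null array. For the adrenal medulla, 9 of 11 listed genes were measured and the summed intensity was 133.0 and 466.5 on labelled Tfrc-null arrays and 233.3 and 408.6 on wildtype arrays. Chga and Chgb, granule proteins of these cells, read 17.5 and 103.9 against 36.6 and 108.8, and 10.3 and 173.4 against 63.2 and 106.3. Both were higher on the array numbered 2 of each group. Pnmt, which makes adrenaline, read 34.0 and 31.0 against 45.4 and 51.6, and Slc18a1 differed by -0.58. For fat cells, where Mc2r and Mrap are known in mice, 9 of 10 genes were measured with sums of 2699 and 1878 against 4357 and 3027, most of it Fabp4, which endothelium also makes. Pparg, a regulator of fat cell formation, read 55.4 and 88.4 against 64.4 and 54.1, and Cebpa, another, read 256.3 and 207.8 against 235.8 and 120.5. With Fabp4, Lipe and Retn they were above the control level on all 4 arrays, and Retn differed by -0.50. Adipoq, Plin4, Cidec and Lep exceeded it on no array.

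Gonad, mural and other adrenal regulators gave a mixed picture. Of the gonad list 9 of 11 were measured, with summed intensities of 767.0 and 1000.3 against 975.8 and 835.7. Fst, the activin-binding follistatin, read 281.4 and 343.1 on labelled Tfrc-null arrays, against 40.6 and 67.3 on wildtype arrays, and Lhx9, Dhh and Sox9 differed by 0.42, 0.36 and -0.70. Dmrt1 and Fshr exceeded the control level on no array. Of the renin and mural cell list 9 of 10 were measured, with sums of 4938 and 5005 against 5397 and 5138. Rgs5, a pericyte gene, read 402.4 and 342.5 against 1207 and 749.6, and Crip1, Myh11 and Mcam differed by 0.69, -0.63 and -0.48. Among adrenal factors, Gata6, which the developing cortex and many mesenchymal cells use, read 78.8 and 91.5 against 48.0 and 32.1, a log2 difference of 1.11 (SE 0.26, limma adjusted p = 0.33). Nr5a2 read 6.77 and 7.91 against 16.5 and 7.91, so that wildtype replicate 1 alone was high. Wt1 and Cbx2 differed by -0.39 and 0.32. The part of other cell types in the Mc2r difference was not tested.

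Genes through which corticosteroids act on the kidney were lower and higher in equal number, 6 each. All 12 listed genes of corticosteroid action were measured, with a median log2 difference of -0.05 and 0 past the adjusted threshold. The glucocorticoid receptor Nr3c1 read 482.5 and 534.7 on labelled Tfrc-null arrays, against 437.7 and 438.2 on wildtype arrays. The glucocorticoid-responsive genes Tsc22d3, Fkbp5, Klf9 and Zbtb16 differed by 0.55, 0.26, -0.47 and -0.30, so they did not run one way.

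The labelled tissue and genotype were checked on the same arrays. Of 12 listed kidney genes 11 were measured and all were above the control level on the 4 arrays. This held for 13572 of all 18194 genes, so it is a weak check of the tissue. Ret, the receptor of the ureteric bud, read 104.3 and 65.1 on labelled Tfrc-null arrays, against 1057 and 789.6 on wildtype arrays, and Foxd1, of the stroma, read 243.1 and 200.6 against 142.1 and 110.9. Nphs1 and Cited1 differed by 0.93 and -0.79. The brightest of 6 Tfrc probe sets read 2509 and 3175 on labelled Tfrc-null arrays, against 1759 and 2348 on wildtype arrays, and each of the 5 above the control level had its higher mean in the cells labelled null. The sources used here do not say which part of the gene was deleted, so these probe sets may lie outside it and check nothing. Every direction above therefore rests on the label.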

How the data were processed

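The authors deposited linear-scale intensities, 1 per probe set and array. The submitters' processing notes name RMA alone, and its settings are not given in the sources used here. Per the labels' protocols, 50 ng of RNA per sample went through isothermal linear amplification with biotin. RMA makes the array distributions alike, and median intensity was 17.5 to 18.8 on labelled Tfrc-null arrays and 17.9 to 19.3 on wildtype arrays. Values were taken to log2. The 34958 probe sets with 1 gene symbol were used, 932 with several and 9211 with none were left out, and 18033 of 18194 genes were found in RefSeq by Entrez identifier. A gene was read from its brightest probe set by mean log2 value. Differences and standard errors come from limma 3.58.1 in R 4.3.3 over all genes, with no block, tested on simulated data. With 2 arrays a group, precision is low, and the smallest two-sided p that exact permutation allows is 0.333. Limma draws the spread of each gene toward that of all genes, so standard errors and p-values rest on both. P-values set the difference of the groups against this moderated spread between these samples, which may be technical.

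The members and lists were chosen with earlier results of these data known. Named are every member and melanocortin gene, the neighbours of Mc2r, the 5 genes closest to it, the near relatives, and up to 4 genes per other list with the largest differences among those above the control level on at least 2 arrays. Gnas, Nr3c1, Hsd17b3, Inha, Lipe and the genes named as below the control level were added after their values were seen. Alternatives were a replicate block, each array left out, the mean of all probe sets, an offset of 16, a filter on dim genes, median centring, quantile normalization, limma trend, another control level and every probe set tested.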

Additional observations from a re-analysis of the deposited data

How the results depend on the processing

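Mc2r stood higher on labelled Tfrc-null arrays under each of the 9 alternatives that give its difference, at 0.92 to 1.46 on the log2 scale. The lowest came with the offset of 16, which shrinks differences of dim genes by construction. Leaving out 1 array gave 0.97 to 1.46, and the gap between Mc2r and the median of the steroid production genes was 0.85 to 1.56. That gap is to a median and does not hold for each gene. Without wildtype replicate 2, Star differed by 1.02 and Mc2r by 0.97. Of the other genes, Star kept a higher mean and Nr5a1 a lower mean under all 9. Cyp11b1, near the control level, kept a higher mean under the 8 that give its difference. Mrap, Cyp11a1, Cyp21a1 and Hsd3b1 each took both signs. The Star difference, 0.57 with all arrays, was 0.12 without wildtype replicate 1, 1.02 without wildtype replicate 2 and 0.12 when probe sets were averaged. Averaging also gave differences of 0.07 for Mrap, -0.32 for Nr5a1 and 0.01 for Cyp21a1.

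Genes past the adjusted threshold numbered 2 with the replicate block, 2 with median centring, 2 with limma trend and 1 when probe sets were averaged, and 0 of the 8 genes described were among them. Deviations of same-numbered arrays correlated (r = 0.493 over all probe sets, which are not independent). With 2 arrays per group, the other pairing gives the same r with opposite sign by construction. The sign therefore cannot show that the numbers mark pairs. Separation of the groups with a 2-fold or larger difference was seen for 484 genes. This number was 600 to 919 when 1 array was left out (919 without wildtype replicate 2), 309 when probe sets were averaged, 243 with the offset and 828 of 34958 probe sets tested one by one. Genes described that exceeded the control level on no array numbered 1 to 2 when 1 array was left out, and 2 with the highest control value used throughout, where Cyp11b1 joined Hsd3b1. With 1 array left out, fewer arrays can overlap, so separation is easier to meet by construction. The offset shrinks differences of dim genes by construction as well. Other causes of these shifts were not tested.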
